A study of Homo sapiens with 11 samples.

Results

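The subject is the contrast between related human acute myeloid leukaemia (AML) lines while both were exposed to FHD-286. It sets 2 libraries of OCI-AML3-FLT3-ITD cells against 3 libraries of OCI-AML3 cells, so 5 of the 11 libraries of the series enter it and no control library does. All 5 were treated with FHD-286 at 100 nM for 16 h and measured by bulk RNA sequencing. The other 6 libraries are controls of the same lines, 3 each, and appear below only to show where the treated comparison differs from the untreated one. OCI-AML3 is an established AML line. OCI-AML3-FLT3-ITD carries, by its name, an internal tandem duplication of FLT3, but the labels give neither how it was made, nor whether it is 1 clone, nor what the controls received.

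FLT3 is a receptor tyrosine kinase of blood progenitors, and an internal tandem duplication makes it signal without its ligand, through STAT5, ERK and PI3K. FHD-286 inhibits BRG1 and BRM, encoded by SMARCA4 and SMARCA2. They are the motor subunits of the BAF chromatin remodelling complex, which helps to keep enhancers of myeloid transcription factors open. The series title names joint inhibition of BRG1/BRM and FLT3 in AML with FLT3 mutations. The treated comparison asks in which transcripts the lines stand apart once that complex is inhibited in both.

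Total counts of the 5 treated libraries ran from 68820021 to 75867647. Values are normalised CPM, counts scaled by library size, and a line difference is the log2 of the FLT3-ITD level over the OCI-AML3 level, so positive means higher in the FLT3-ITD line. A gene was called at a Benjamini-Hochberg adjusted p under 0.05 in edgeR's quasi-likelihood test. Treated replicates correlated at 0.9992 in OCI-AML3 and 0.9983 in the FLT3-ITD line, against 0.9795 to 0.9805 between lines, on log2(CPM + 1) over genes, so not over independent points. The labels leave out whether replicates were grown as separate cultures, and p-values here measure no more than the spread among these libraries, which can be technical. Of 10 markers of a myeloid leukaemia line, all 10 were detected well enough to be tested, while 2 of 15 erythroid and megakaryocyte, 5 of 16 lymphoid and 3 of 14 stromal and epithelial markers were. Summed levels in treated OCI-AML3 and the treated FLT3-ITD line were 184 to 193 and 304 to 305 CPM for the erythroid list, 245 to 252 and 228 CPM for the lymphoid list and 24.9 to 27.8 and 4.89 CPM for the stromal list. Nearly all of these sums is TFRC, the transferrin receptor of dividing cells (302 and 303 CPM in the treated FLT3-ITD line), CD4, also a monocyte protein (226 and 227 CPM), and PECAM1, also a leukocyte adhesion molecule (4.78 and 4.79 CPM). The defining markers HBB, HBA2, PF4, CD3E, MS4A1, EPCAM and COL1A2 were at 0 in all 5 libraries, below the 0.0366 to 0.0412 CPM that 3 counts would give.

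FLT3 itself (ENSG00000122025.14, GRCh38 chromosome 13, 28003274 to 28100592) separated the treated lines. Its level was 42.0, 39.2 and 43.0 CPM in the OCI-AML3 replicates with FHD-286 and 171 and 169 CPM in those of the FLT3-ITD line. The groups lay far apart, with a line difference of 2.04 (SE 0.05, adjusted p = 6.55e-13). The library labelled as replicate 2 of the OCI-AML3-FLT3-ITD controls goes against its label and is called below the control labelled FLT3-ITD replicate 2. It held 53.3 CPM of FLT3, against 178 and 203 CPM in the other FLT3-ITD controls. Being a control, it is outside the treated comparison, but it enters values taken from the controls. Medians, counts of calls and fitted differences that use controls are given with and without it.

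The drug's targets differed by less than 2-fold, and of these only SMARCA2 was called. SMARCA4 was at 378, 382 and 384 CPM in treated OCI-AML3 against 366 and 374 CPM in the likewise treated FLT3-ITD line, a line difference of -0.04 (SE 0.04) that was not called (adjusted p = 0.406). SMARCA2 was at 92.1 to 93.5 CPM against 124 and 126 CPM, higher in the FLT3-ITD line by 0.43 (SE 0.04, adjusted p = 1.35e-06). MYC, a growth-driving transcription factor, was at 223, 233 and 218 CPM against 200.1 and 178 CPM, lower by a line difference of -0.25 (SE 0.05, adjusted p = 0.00142).

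**Figure D1:**
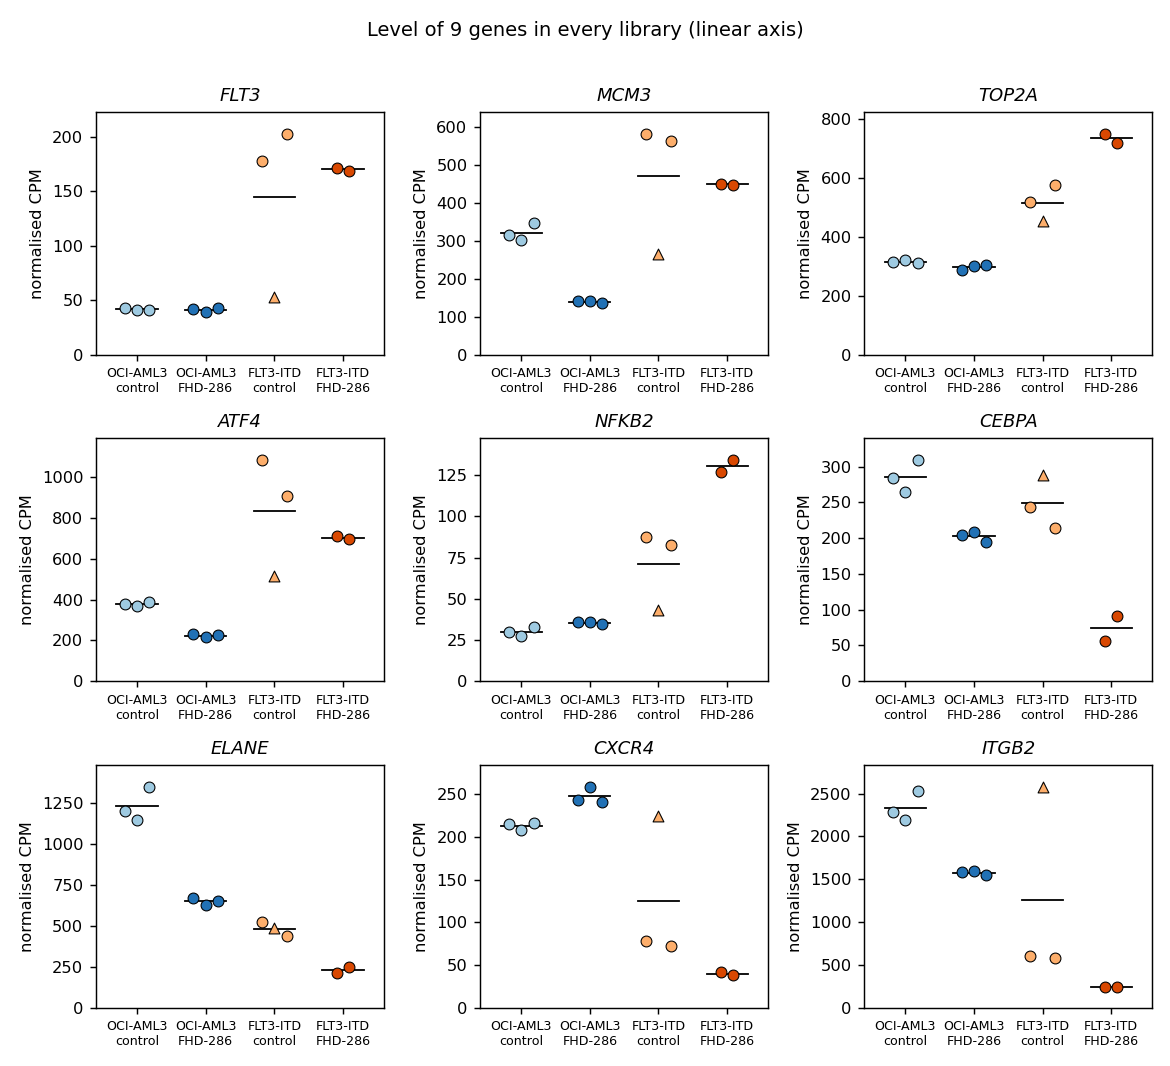
Normalised CPM (vertical axes, linear, from 0) of 9 genes in each of the 11 libraries, grouped on the horizontal axes by line and treatment, with bars at group means. The triangle is the control labelled FLT3-ITD replicate 2. The treated FLT3-ITD libraries lie above the treated OCI-AML3 libraries for FLT3, MCM3, TOP2A, ATF4 and NFKB2 and below them for CEBPA, ELANE, CXCR4 and ITGB2, with no overlap.

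Across the transcriptome, 9581 of 17887 genes tested were called (53.6%), 4827 higher in the FLT3-ITD line (27.0%) and 4754 lower (26.6%). At least 2-fold, 1510 were higher (8.44%) and 1054 lower (5.89%). The replicates were tight, with a common biological coefficient of variation of 0.0526, so differences far under 2-fold were called. For 12148 genes (67.9%) the CPM ranges of the lines did not overlap, and the median line difference over all genes was -0.000986. The shares 27.0% and 26.6% are the background against which each gene list below is read.

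Some genes were at or near 0 in 1 of the treated lines. EEF1A2, a translation elongation factor, stood at 0.0130 to 0.0938 against 41.0 and 42.6 CPM, and WT1, a zinc-finger transcription factor, at 0 to 0.0536 against 16.3 and 14.2 CPM. IGF2BP1, an RNA-binding protein of fetal tissues, was at 0.272 to 0.428 against 78.2 and 74.2 CPM, a line difference of 7.80 (SE 0.10, adjusted p = 9.4e-15). By the rule used, WLS, ALPK3, CABP4, MEI1, ITPRIPL1, FKBP10, GNG12 and LTK are also among the 12 largest positive differences, and range between 5.86 (LTK) and 8.999 (WLS).

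In the other direction, CD93, a surface receptor of myeloid and stem cells, was at 81.1, 87.7 and 76.5 CPM in treated OCI-AML3 and at 0.137 and 0.122 CPM in the treated FLT3-ITD line (line difference -9.29, SE 0.13, adjusted p = 1.41e-14). ZEB1, a transcriptional repressor, stood at 30.6, 32.6 and 30.3 against 0.343 and 0.342 CPM (-6.50, SE 0.11). GSPT2, a translation termination factor, was at 22.2 to 23.7 against 0.0137 and 0.0366 CPM. The 12 largest negative differences also held ZNF43, ZNF320, ZNF718, MATK, NXF3, GABBR2, PDE9A and ZNF808, and the last pair had 3 and 2 counts in the FLT3-ITD line, ratios of 827 (95% interval 283 to 4010, counting error only) and 765 (211 to 6320). ZNF320 shares 78.5% and ZNF808 17.3% of its exon length with another gene, which leaves their counts uncertain to that extent.

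With an average of under 0.1 CPM in one treated line and at least 5 CPM in the other, 8 genes were seen in the FLT3-ITD line and 15 in OCI-AML3. Zinc-finger genes with a ZNF symbol made up 5 of the 15 (ZNF43, ZNF320, ZNF600, ZNF718 and ZNF808; ZNF600 was named after its values were seen) and 0 of the 8. This set was counted because ZNF genes were seen among the largest negative differences, which it contains, so its counts are a description. Among the 425 ZNF genes tested, 68 were higher and 194 lower in the FLT3-ITD line, with a median line difference of -0.16. At least 2-fold, 41 were lower (9.65%) and 11 higher (2.59%), against 5.78% and 9.01% of all 12913 protein-coding genes. On chromosome 19, where these genes lie in arrays, 31 of 203 were lower at least 2-fold (15.3%). In each of these 23 genes the control labelled FLT3-ITD replicate 2 was on the OCI-AML3 side: at least 1 CPM in all 15, below 1 CPM in all 8.

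Replication genes were higher almost without exception. Of 25 S phase genes tested, 24 were higher and 0 lower in the treated FLT3-ITD line, with a median line difference of 1.08, and TYMS (0.08) was the member not called. Of these, 15 were higher at least 2-fold. MCM3, a subunit of the replicative helicase, was at 141, 142 and 136 CPM in treated OCI-AML3 against 450.4 and 448 CPM in the likewise treated FLT3-ITD line (line difference 1.68, SE 0.04, adjusted p = 8.1e-13). MCM2, another subunit, was at 151, 153 and 145 against 349 and 354 CPM (1.23, SE 0.04), with 23.6% of its exon length shared with another gene. In both genes, named for their small p, every treated FLT3-ITD library lies above every treated OCI-AML3 library. Over all genes tested, the lines did not overlap in 67.9%, counting both directions.

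The origin-licensing factor CDT1 was at 77.3, 82.2 and 76.5 CPM against 187 and 194 CPM (1.27, SE 0.05). RRM2, a subunit of ribonucleotide reductase that makes DNA precursors, was at 132, 133 and 131 against 309 and 291 CPM (1.18, SE 0.04), with 20.2% of its exon length shared. Mitotic genes went the same way: 25 of 25 G2 and M phase genes were higher, with a median of 0.924, 9 of them at least 2-fold. TOP2A, the topoisomerase that untangles replicated DNA, stood at 288, 299 and 303 CPM against 748 and 718 CPM (1.31, SE 0.04, adjusted p = 1.19e-11). The mitotic kinases PLK1 and TTK differed by 1.72 and 1.85 and the kinetochore protein CENPF by 1.22.

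Position on a chromosome moved with some of these values, as described further below. MCM3, TTK and PLK1 lie in stretches of chromosomes 6 and 16 where most genes were higher in the FLT3-ITD line. Outside the stretches described below, 23 of 24 S phase and 23 of 23 G2 and M phase genes were higher. Their medians were 1.08 and 0.913. Chromosome 18 before 20 Mb, where 40 of 79 genes were lower, counts as outside, as do smaller shifted windows.

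The lines stood less far apart in these genes without the drug. In controls the median line difference of the S phase genes was 0.0994 and that of the G2 and M phase genes 0.309, or 0.279 and 0.424 without the control labelled FLT3-ITD replicate 2. The difference of line differences (treated minus untreated) was called for 635 of 18908 genes in the fit of all 11 libraries (3.36%), 375 of them higher (1.98%) and 260 lower (1.38%). These counts rest on single libraries: leaving out any 1 library other than the third FLT3-ITD control moved a count by over 1.5 times, between 46 and 1792 higher and 59 and 1374 lower. Called higher were 18 of the S phase and 13 of the G2 and M phase genes, and 0 of either list was called lower. MCM3 was not among the 18, with a difference of 1.14 (edgeR adjusted p = 0.105). It was 0.85 and called without the control labelled FLT3-ITD replicate 2. Without that library 3166 of 18662 genes were called (17.0%), 9.60% higher and 7.36% lower, among them 24 S phase and 25 G2 and M phase genes, all higher. For RRM2 the difference was 0.82 (SE 0.09, adjusted p = 0.00212), or 0.77 without that library: controls held 181, 172 and 185 CPM in OCI-AML3 and 243, 218 and 234 CPM in libraries of the FLT3-ITD label.

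Promoters of replication genes carry sites of E2F factors, which switch on S phase transcription. In RefSeq promoters (GRCh38.p14, 250 bases before to 50 after the start), which matched 10437 of the 12913 protein-coding genes tested, the motifs TTTCCCGC and TTTGGCGC were searched on both strands. They were present in 13 of the 21 S phase promoters matched (61.9%), in 1 of 20 G2 and M phase promoters (5%) and in 3.73% of all promoters. Among genes higher at least 2-fold the share was 4.63%, near that of all promoters. The promoters of MCM3 and of E2F1, which encodes the factor itself, are shown because both genes are in the list and hold 1 site each, in capitals, at -174 and -20 from the start. E2F1 was named after its values were seen, with 28.99, 29.2 and 28.7 CPM against 57.5 and 63.0 CPM (line difference 1.06, SE 0.06, adjusted p = 1.46e-09).
MCM3 promoter, chr6:52284693-52284992, minus strand: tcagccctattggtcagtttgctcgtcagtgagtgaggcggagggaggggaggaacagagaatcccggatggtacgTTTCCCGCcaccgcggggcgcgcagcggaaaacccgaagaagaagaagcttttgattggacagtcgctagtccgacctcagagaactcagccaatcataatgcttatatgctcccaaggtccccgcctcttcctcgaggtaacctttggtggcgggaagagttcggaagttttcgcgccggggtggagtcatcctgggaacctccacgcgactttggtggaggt
E2F1 promoter, chr20:33686336-33686635, minus strand: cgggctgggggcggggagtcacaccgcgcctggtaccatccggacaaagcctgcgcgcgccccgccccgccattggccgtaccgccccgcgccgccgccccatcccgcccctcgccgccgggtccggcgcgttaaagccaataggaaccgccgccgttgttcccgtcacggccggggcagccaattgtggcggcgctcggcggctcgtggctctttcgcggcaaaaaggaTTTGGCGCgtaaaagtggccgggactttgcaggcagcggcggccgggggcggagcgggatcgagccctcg

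Genes of the ATF4 stress response, which answers amino acid shortage and unfolded proteins, were higher as a group. Of 22 tested, 21 were higher and 0 lower, 16 at least 2-fold, with a median of 1.43, and CEBPG (0.10) was not called. ATF4, the transcription factor, was at 230.1, 217 and 224 CPM in treated OCI-AML3 against 710.0 and 697 CPM in the likewise treated FLT3-ITD line (1.65, SE 0.04, adjusted p = 1.07e-12). CHAC1, which degrades glutathione, was at 2.85, 2.61 and 2.82 against 58.4 and 58.9 CPM (4.41, SE 0.07, adjusted p = 2.73e-14). In both genes the replicates of a line are close together and the lines do not overlap. The naming rules favour such genes, and 67.9% of all genes tested did not overlap.

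PHGDH, the first enzyme of serine synthesis, was at 36.9, 37.7 and 37.2 CPM against 165 and 167 CPM (2.16, SE 0.04). The mitochondrial folate enzyme ALDH1L2 and the gluconeogenic enzyme PCK2 differed by 2.21 and 1.77. This list also stood apart in controls, with a median of 1.66, or 1.92 without the control labelled FLT3-ITD replicate 2. In the difference of line differences 0 members were called higher and 1 lower, DDIT4, and without that library 0 higher and 15 lower. DDIT4, an inhibitor of mTORC1, was at 28.9, 25.4 and 26.02 against 54.4 and 57.0 CPM in the treated lines (1.06) and at 9.95 to 11.96 against 138, 63.1 and 130.2 CPM in the controls, with 41.2% of its exon length shared with another gene.

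**Figure D2:**
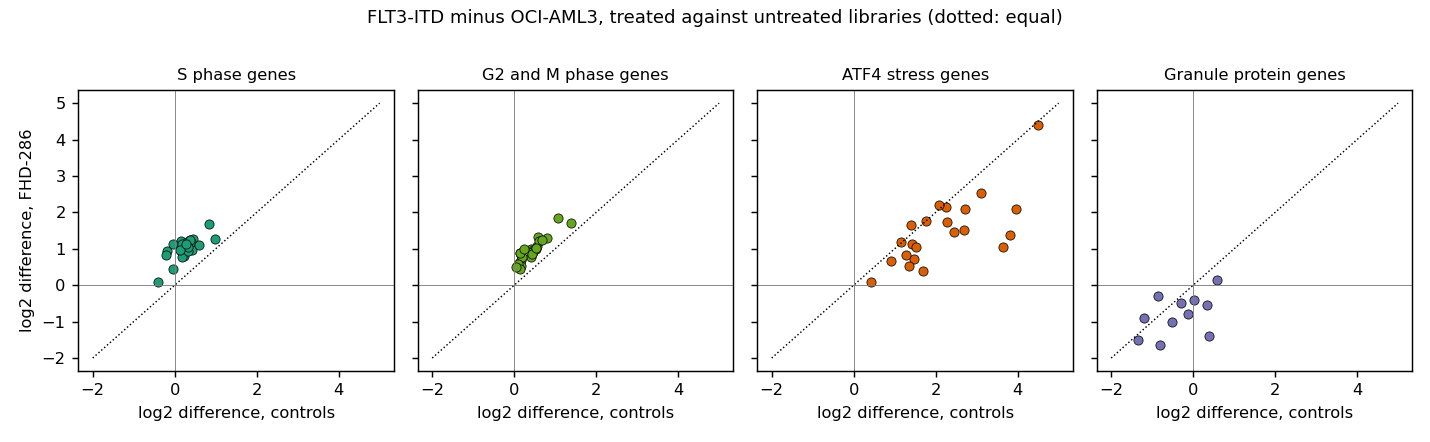
Log2 line difference with FHD-286 (vertical axis) against the log2 line difference in controls without the control labelled FLT3-ITD replicate 2 (horizontal axis), 1 point per gene of 4 lists; the dotted line marks equal values. S phase and G2 and M phase genes lie above the line (medians 1.08 and 0.924 treated, 0.279 and 0.424 untreated), whereas most ATF4 stress genes lie below it (1.43 and 1.92).

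The composite element read by ATF4 with C/EBP proteins, searched as TGATGNAA on both strands, was in 4 of the 18 matched ATF4 list promoters (22.2%) and in 1.76% of all promoters. It was in 3.5% of promoters of genes higher at least 2-fold. CHAC1, the member with the largest difference, and ASNS, the asparagine synthetase gene, hold 1 each, at -209 and -68. The CHAC1 element lies on the opposite strand and appears as its reverse complement. ASNS, named after its values were seen, was at 107, 102 and 109.8 CPM against 304 and 305 CPM (1.52, SE 0.05), and 44.6% of its exon length is shared with another gene.
CHAC1 promoter, chr15:40953221-40953520, plus strand: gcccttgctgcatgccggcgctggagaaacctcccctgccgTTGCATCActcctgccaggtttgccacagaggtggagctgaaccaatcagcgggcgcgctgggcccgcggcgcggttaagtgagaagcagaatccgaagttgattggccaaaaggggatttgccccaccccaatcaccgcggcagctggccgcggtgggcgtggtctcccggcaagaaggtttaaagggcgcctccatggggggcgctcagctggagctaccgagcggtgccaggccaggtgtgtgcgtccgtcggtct
ASNS promoter, chr7:97872359-97872658, minus strand: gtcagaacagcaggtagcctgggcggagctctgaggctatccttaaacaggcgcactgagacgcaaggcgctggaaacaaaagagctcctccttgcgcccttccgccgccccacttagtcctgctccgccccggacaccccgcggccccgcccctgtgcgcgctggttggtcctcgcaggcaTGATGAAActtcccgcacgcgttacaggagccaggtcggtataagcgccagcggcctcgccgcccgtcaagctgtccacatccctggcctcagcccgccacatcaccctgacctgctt

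NF-kB and inflammatory genes were mostly higher: 15 of 19 higher and 2 lower, 11 and 1 at least 2-fold, with a median of 1.15. NFKB2, a subunit of the non-canonical NF-kB pathway, was at 35.7, 36.1 and 34.6 CPM against 127 and 134 CPM (1.88, SE 0.05, adjusted p = 1.03e-12). TNFAIP3, a feedback inhibitor of the pathway, was at 28.0, 28.2 and 26.4 against 87.8 and 84.9 CPM (1.65, SE 0.05), on a stretch of chromosome 6 where most genes were higher. TNFAIP2 and NFKBIZ differed by 1.65 and 2.40. The members lower were the cytokine IL18 (-2.38) and the inflammasome sensor NLRP3 (-0.22), at 305, 299 and 292 against 255 and 256 CPM.

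In controls the NF-kB list had a median of 0.846, or 1.09 without the control labelled FLT3-ITD replicate 2. The difference of line differences was called for 3 of its members, NFKBIA, ICAM1 and BIRC3, all higher. Without that library it was called for 9 higher and 7 lower. BIRC3 (edgeR adjusted p = 0.0442) was near the counting floor outside the treated FLT3-ITD line, where it was at 2.94 and 2.16 CPM. It was at 0.0648 to 0.161 CPM in treated OCI-AML3 and 0.0289 to 0.225 CPM in controls. A kB site (the NF-kB motif, both strands) was in 7 of 16 matched promoters (43.8%) and in 12.9% of all, and S phase promoters held it at 33.3%. TNFAIP3 is shown because its 2 sites lie close together, at -67 and -55.
TNFAIP3 promoter, chr6:137867009-137867308, plus strand: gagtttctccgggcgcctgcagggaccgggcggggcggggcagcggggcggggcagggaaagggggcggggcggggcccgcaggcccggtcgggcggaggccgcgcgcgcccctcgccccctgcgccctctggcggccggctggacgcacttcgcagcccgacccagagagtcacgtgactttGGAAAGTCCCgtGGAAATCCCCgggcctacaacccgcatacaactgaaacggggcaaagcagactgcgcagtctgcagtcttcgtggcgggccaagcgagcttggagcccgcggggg

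Interferon-stimulated genes, the antiviral set, were higher in 14 and lower in 3 of 24, with a median of 0.476. OAS3, an RNA sensor enzyme, was low in both lines, at 0.335, 0.259 and 0.246 against 6.15 and 6.17 CPM (4.45, SE 0.16), and RIGI, another RNA sensor, at 11.01, 10.5 and 11.1 against 16.4 and 16.1 CPM (0.58). STAT2, which carries the interferon signal, was lower (-0.26), as was OASL (-1.51). In controls the median was 1.17, or 1.33 without the control labelled FLT3-ITD replicate 2. IFIT1, IFIT2 and IFIT3 were the 3 members called lower in the difference of line differences (10 members without that library). IFIT2 was at 3.28, 4.07 and 3.73 against 5.45 and 4.98 CPM with FHD-286, with 10.3% of its exon length shared. In controls it was at 0.0365 to 0.0781 against 1.07 to 1.70 CPM. The difference was -3.85 (SE 0.39, adjusted p = 0.00161), or -3.62 without that library. Its size is uncertain, because the OCI-AML3 control values lie around the 0.0469 to 0.0548 CPM that 3 counts give in those libraries.

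**Figure D3:**
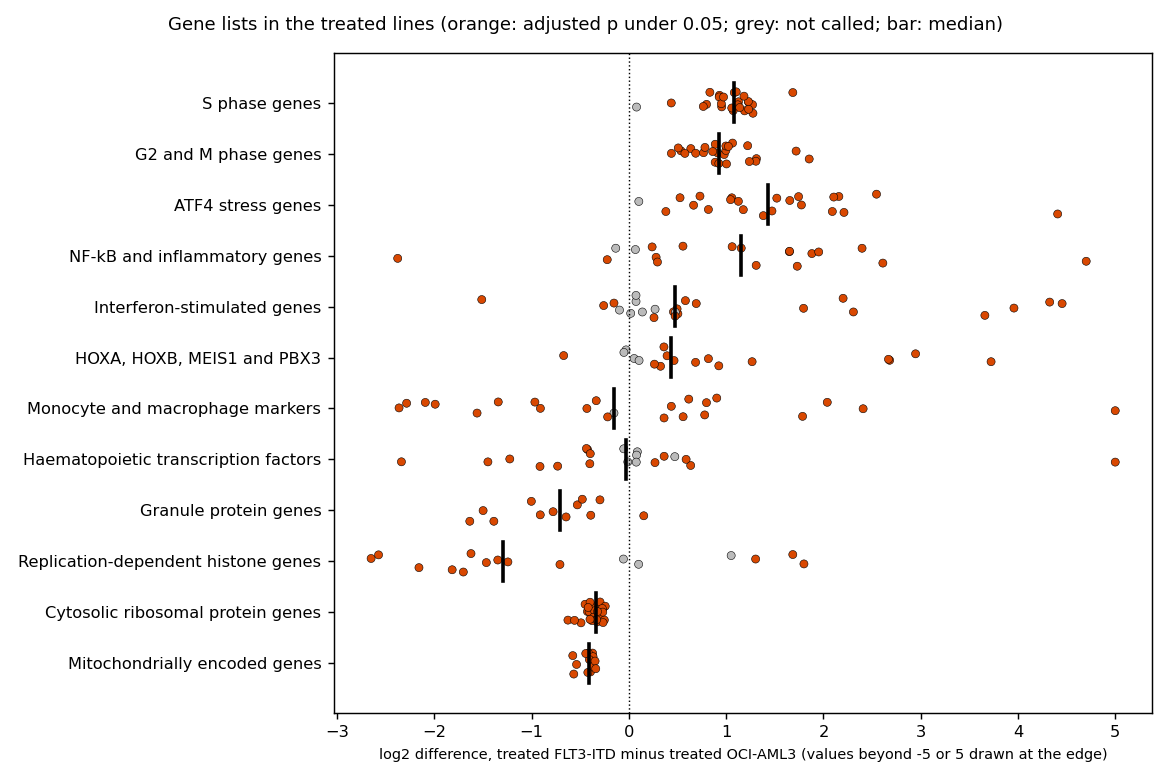
Log2 line difference between the treated lines (horizontal axis) of the members of 12 gene lists (rows); orange points were called, grey points were not, and bars are list medians. S phase, G2 and M phase and ATF4 stress genes lie to the right of 0 (medians 1.08, 0.924 and 1.43), granule protein and histone genes mostly to the left (-0.713 and -1.30), and monocyte markers on both sides.

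Granule protein genes, which mark neutrophil precursors, were lower. Of 12 tested, 11 were lower and 1 higher, with a median of -0.713. ELANE, neutrophil elastase, was at 673, 627 and 654 CPM in treated OCI-AML3 against 213 and 247 CPM in the likewise treated FLT3-ITD line (-1.50, SE 0.06, adjusted p = 9.95e-11). The ribonucleases RNASE2 and RNASE3 and the granulocyte-monocyte marker MS4A3 differed by -1.004, -1.64 and -0.78, and the protease inhibitor CSTA was the member that was higher (0.15). ELANE was also lower in controls (-1.35 with and without the control labelled FLT3-ITD replicate 2, which at 486 CPM lay with its label for this gene). MPO, MS4A3 and RNASE3 were called lower in the difference of line differences and 0 members higher, against 8 lower and 1 higher without that library.

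The list of transcription factors that set up this programme was split, with 5 of 20 haematopoietic factors higher and 9 lower and a median of -0.0327. SPI1, which encodes PU.1, was at 42.2, 49.1 and 42.2 CPM in treated OCI-AML3 against 23.1 and 24.1 CPM in the likewise treated FLT3-ITD line (-0.91, SE 0.07, adjusted p = 1.19e-07). In controls it was at 303 to 345 against 271 to 316 CPM (-0.14, not called, adjusted p = 0.378, or -0.12, adjusted p = 0.302, without the control labelled FLT3-ITD replicate 2). The difference of line differences was -0.78 (SE 0.13, adjusted p = 0.0128), or -0.79 without it. CEBPA, the granulocyte factor, was at 205, 209 and 194 against 56.8 and 91.3 CPM (-1.45, SE 0.13), with 43.4% of its exon length shared with another gene. For both factors the groups did not overlap, as for 67.9% of all genes tested. The FLT3-ITD replicates of CEBPA were less close to each other than those of SPI1.

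CEBPB, a macrophage factor, was lower with FHD-286 (95.7, 98.2 and 98.8 against 39.7 and 59.9 CPM, -0.97) and higher in controls (25.4 to 28.7 against 92.0, 52.6 and 83.7 CPM; 1.49, or 1.69 without the control labelled FLT3-ITD replicate 2), with 11.8% of its exon length shared. LMO2, a stem and progenitor cofactor, was at 339.5, 345 and 334 against 144 and 147 CPM (-1.23, SE 0.04). The progenitor repressor GFI1 differed by -0.73 and the ETS factor ERG by -2.34, while RUNX1 was higher by 0.63. SPI1, CEBPA, LMO2, FLI1 and GFI1 were the 5 factors whose line difference was called lower under treatment, and 0 were called higher (4 higher and 8 lower without that library).

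HOX genes, which keep AML cells in a progenitor state, were higher in 13 and lower in 1 of 18, counting MEIS1 and PBX3, with a median of 0.428. HOXB9 was at 2.93, 2.36 and 2.53 CPM against 34.7 and 34.2 CPM (3.72, SE 0.09), and HOXB8 at 8.09, 7.70 and 7.73 against 18.7 and 19.02 CPM (1.27). HOXA5 differed by 2.67 and HOXB3 by 0.82, the latter with 13.2% of its exon length shared. HOXA10 was the member lower (-0.67, 171, 175 and 173 against 93.5 and 123 CPM), with 26.3% of its exon length shared. In the difference of line differences 4 of the 18 were called, all higher, without the control labelled FLT3-ITD replicate 2. With it, 0 were called in edgeR (3 at an unadjusted p under 0.05), and the 5 members named here had adjusted p of 0.253 to 0.998.

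Monocyte and macrophage markers did not move one way: 11 of 23 were higher, 11 lower, with MS4A7 (-0.15) not called. CD163, a scavenger receptor of macrophages, was at 4.45, 4.58 and 3.91 against 24.7 and 21.1 CPM (2.41, SE 0.09), and the matrix proteoglycan VCAN at 13.7, 15.8 and 15.3 against 48.4 and 54.6 CPM (1.79). MNDA, a nuclear antigen of myeloid cells, was at 368, 383 and 373 against 142 and 112 CPM (-1.56, SE 0.08), and the alarmin S100A8 at 6.50, 7.30 and 6.57 against 1.33 and 1.83 CPM (-2.09). In all 4 genes, named for their small p, the treated lines did not overlap, which held for 67.9% of all genes tested. Under treatment the line difference was lower than in controls for 6 members and higher for 1, LYZ, and for 12 and 4 without the control labelled FLT3-ITD replicate 2.

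Receptors that guide or feed the cells were among the large differences. CXCR4, the receptor that holds leukaemia cells in the marrow, was at 243, 259 and 241 CPM against 41.9 and 37.8 CPM (-2.63, SE 0.06, adjusted p = 3.59e-13). CSF2RB, the shared chain of the GM-CSF, IL-3 and IL-5 receptors, was at 14.5, 13.5 and 13.3 against 3.61 and 3.42 CPM (-1.97, SE 0.09). Its line difference in controls was -0.33 and not called (adjusted p = 0.139), or -0.48 and called without the control labelled FLT3-ITD replicate 2. The difference of line differences was -1.64 (SE 0.17, adjusted p = 0.00172), or -1.49 without it. Cytokine receptors were more often lower, with 4 higher and 8 lower of 16, against 26.6% of all genes tested lower. In the difference of line differences 0 of them were called higher and 3 lower, or 1 and 6 without that library. Chemoattractant receptors and ligands were split, with 6 higher and 4 lower of 16.

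Among 11 AML stem and blast surface markers 2 were higher and 7 lower. CD44, the hyaluronan receptor, was at 37.8, 38.0 and 38.9 CPM against 2.35 and 2.26 CPM (-4.05, SE 0.08, adjusted p = 1.03e-13). CD38 differed by -0.82 and LILRB4 by -1.16 (13.0% of its exon length shared), while CD82 was higher by 0.88 and CD47, the signal against phagocytosis, by 0.39. Integrins and focal adhesion genes were higher in 7 and lower in 10 of 22, with ITGB2 (-2.72), ITGB5 (-3.34), ITGA4 (-1.23) and the integrin activator FERMT3 (-1.69) lower and the kinase PTK2 (1.15) and VCL (0.48, 11.1% shared) higher.

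Signalling downstream of FLT3 showed no single direction in its transcripts. STAT5 itself and its targets were higher in 4 and lower in 4 of 17. PIM1, a kinase that STAT5 induces, was at 4.58, 5.46 and 4.82 CPM against 11.2 and 11.9 CPM (1.22, SE 0.09, adjusted p = 7.26e-08), and PIM3 differed by 0.44. STAT5B, at 73.0, 70.5 and 69.9 against 38.9 and 40.4 CPM (-0.84), and the cytokine OSM (-0.92) were lower. CISH, the classical STAT5 feedback gene, named after its values were seen, was at 5.02, 5.81 and 4.82 against 3.36 and 2.93 CPM (-0.73, SE 0.12, adjusted p = 0.000151).

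The STAT motif TTCNNNGAA (both strands) was in 2 of the 14 matched promoters of that list (14.3%) and in 6.29% of all, against 4.86% and 5.69% of genes higher and lower at least 2-fold. The CISH promoter holds 4 of them, shown in capitals, at -241, -230, -129 and -112. It is shown for its number of sites, while the promoter of PIM1, whose transcript was higher, holds 0 of them. CISH was also lower in controls, at 16.3, 16.7 and 16.7 CPM against 11.4, 9.37 and 10.1 CPM. Its difference of line differences was -0.04 and not called (adjusted p = 0.925), or -0.11 without the control labelled FLT3-ITD replicate 2. Whether these sites act in these cells was not tested.
CISH promoter, chr3:50611725-50612024, minus strand: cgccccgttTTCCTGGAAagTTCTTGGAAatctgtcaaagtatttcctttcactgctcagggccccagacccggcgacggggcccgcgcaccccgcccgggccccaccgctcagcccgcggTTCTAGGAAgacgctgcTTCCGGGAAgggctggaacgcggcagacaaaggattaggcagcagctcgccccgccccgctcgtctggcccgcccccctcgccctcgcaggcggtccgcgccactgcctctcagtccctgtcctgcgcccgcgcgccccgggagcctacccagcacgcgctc

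Outputs of the ERK pathway were more often lower (6 higher and 12 lower of 20, median -0.396). PHLDA1 was at 24.9, 27.6 and 26.7 against 3.57 and 3.28 CPM (-2.95, SE 0.09, with 16.5% of its exon length shared). The feedback inhibitor SPRY4 was at 131, 126 and 131 against 41.1 and 39.5 CPM (-1.68, SE 0.05) and SPRY1 differed by -2.10, whereas SPRED2 (0.61) and the immediate early gene IER3 (1.499, 26.5% shared) were higher. On the PI3K and FOXO axis 7 were higher and 9 lower of 18, among them PIK3CD, the leukocyte catalytic subunit (-1.13), and BCL2L11, which encodes the death protein BIM (-0.91, 10.9% shared). Of 13 genes of the FLT3 receptor and its adaptors 8 were higher, FLT3 included, and 3 lower, with FES at -1.78 and GAB2 at -1.01 against SH2B3 at 1.00.

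Of 13 BCL2 family genes 5 were higher and 3 lower, with a median of 0.0442. BCL2, the anti-apoptotic protein, was at 44.5, 45.8 and 43.5 CPM against 139 and 130.2 CPM (1.59, SE 0.05, adjusted p = 5.88e-12). The pro-apoptotic PMAIP1 was at 6.51, 7.60 and 6.85 against 45.9 and 35.2 CPM (2.53, SE 0.10), and BMF, of the same kind, at 5.27 to 5.79 against 15.7 and 15.6 CPM (1.51). BCL2A1 (-1.47) and MCL1 (-0.34, 991, 967 and 995 against 792 and 765 CPM), which block apoptosis, were lower. Both BCL2 and PMAIP1 lie on the long arm of chromosome 18, in a stretch where most genes were higher. Outside the stretches described below, 3 of 11 family members were higher and 3 lower, with a median of -0.235. Of 21 p53 target genes 14 were higher and 2 lower, with a median of 0.379: the stress cytokine GDF15 was at 1.84, 2.05 and 1.98 against 17.3 and 20.1 CPM (3.26), SESN2 at 32.5 to 33.2 against 89.0 and 92.9 CPM (1.47) and the death receptor FAS at 5.36 to 5.47 against 16.9 and 15.8 CPM (1.59). SESN2 is also in the ATF4 list.

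Subunits of the BAF complex were split, 7 higher and 12 lower of 25. PHF10, a subunit of the PBAF form, was at 111, 114 and 113 CPM against 500.3 and 461 CPM (2.09, SE 0.05, adjusted p = 2.91e-13). SS18 (0.73) and ARID1B (0.60) were higher and DPF1 (-1.42) lower. PHF10, ARID1B and BICRAL lie on the higher stretch of chromosome 6 and SS18 on that of chromosome 18. Outside the stretches described below, 3 of 21 subunits were higher and 12 lower, with a median of -0.173.

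Metabolic and antigen presentation genes held single large differences in lists without a common direction. In the cholesterol list, 6 higher and 7 lower of 20 with a median of 0.0186, the sterol isomerase EBP was at 13.97, 14.6 and 14.7 CPM against 2.64 and 2.50 CPM (-2.49, SE 0.09). In controls that list had a median of -0.291, and in the difference of line differences 0 of its members were called in edgeR (3 at an unadjusted p under 0.05). Without the control labelled FLT3-ITD replicate 2 the median in controls was -0.699 and 18 members were called higher, so that call rests on leaving out 1 library. INSIG1, the sterol sensor partner, was at 76.3, 78.5 and 74.8 against 105 and 99.9 CPM with FHD-286 (0.42) and at 231 to 245 against 122 to 345 CPM in controls, the highest being that library.

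Glycolysis genes were higher in 6 and lower in 9 of 20. The phosphofructokinase genes went opposite ways, PFKP at 117, 116 and 115 against 179 and 172 CPM (0.59) and PFKM at 0.82 but PFKL at -1.83. GCLC, the rate-limiting enzyme of glutathione synthesis, was at 12.9, 13.97 and 12.3 against 34.5 and 31.8 CPM (1.34), on the higher stretch of chromosome 6, and NCF1, a subunit of the phagocyte NADPH oxidase, at 42.0, 49.0 and 40.3 against 19.3 and 17.2 CPM (-1.26). HLA-E, a class I molecule that restrains natural killer cells, was at 1131, 1035 and 1129 against 581 and 582 CPM (-0.92, SE 0.05). In controls HLA-E was at 539 to 601 against 615 to 783 CPM, and the difference of line differences was -1.22 (SE 0.14, adjusted p = 0.00212), or -1.13 without the control labelled FLT3-ITD replicate 2. NLRC5, which switches on class I genes, was at 57.7, 57.4 and 56.3 against 26.6 and 29 CPM (-1.04), while the class I list was higher in 8 and lower in 4 of 17.

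In the Wnt list, 5 higher and 7 lower of 19, the co-receptor LRP5 (-1.53) was lower and the T cell factor TCF7 higher (1.68). TCF7L2, a related factor, was at 15.3, 15.5 and 17.0 against 8.81 and 7.48 CPM (-0.97) and at 7.38 to 8.93 against 9.45 to 11.3 CPM in controls. Of 5 drug efflux transporters tested 3 were lower, ABCC1 at 44.3, 43.6 and 45.7 against 29.1 and 31.2 CPM (-0.56).

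Ribosomal protein and mitochondrially encoded genes were lower by small amounts. All 28 cytosolic ribosomal protein genes were lower, by line differences from -0.627 to -0.244, and all 13 mitochondrially encoded genes, from -0.578 to -0.341. In the fit of all 11 libraries, whose shared spread is larger, 12 of the ribosomal genes and 0 of the mitochondrial genes were called by edgeR. Of the latter, 1 had an unadjusted p under 0.05, and MT-CO1, a subunit of cytochrome oxidase, had an adjusted p of 0.0695. Mitochondrial genes took 6.29% to 7.54% of all counts in treated OCI-AML3 and 4.91% to 5.13% in the treated FLT3-ITD line. Replication-dependent histone genes, whose transcripts mostly lack a poly(A) tail, were lower in 10 and higher in 3 of 16. Their median of -1.30 was opposite in sign to that of the S phase genes. Whether the histone transcripts counted here carry a tail, or were made in S phase, was not tested. H2AC6 was at 113, 103 and 112 against 17.0 and 17.9 CPM (-2.65, SE 0.06) and H2BC12 at 99.3, 92.1 and 96.6 against 26.2 and 28.3 CPM (-1.82), whereas H1-5 was higher (1.68). Counts of histone and ribosomal protein families may be split between near-identical copies and are uncertain in that respect.

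Line differences clustered by position. On chromosome 21 from 40 Mb, 68 of 78 genes tested were lower in the treated FLT3-ITD line and 3 higher, with a median of -1.67, while before 40 Mb the median was -0.0111. All 6 of the abundant genes (mean of at least 200 CPM) with the largest negative differences lie there: ITGB2, SUMO3, TRPM2, CSTB, UBE2G2 and PDXK. ITGB2, the beta chain of the leukocyte integrins, was at 1585, 1594 and 1546 against 242 and 238 CPM (-2.72, SE 0.04, adjusted p = 3.72e-14), and SUMO3, a protein modifier, at 426, 413 and 418 against 76.3 and 76.3 CPM (-2.46). PFKL, the liver form of phosphofructokinase, at 664, 663 and 639 against 183 and 185 CPM (-1.83), lies in the same run of 24 neighbouring genes called lower, from RRP1B to COL6A1 (chromosome 21, 43659548 to 46005050, median -1.83).

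Of the stretches described here, another 3 were shifted upwards. Of 521 genes on chromosome 6 from 40 Mb, 348 were higher and 37 lower (median 0.56), against a median of -0.00892 before 40 Mb. On chromosome 18 from 20 Mb, 116 of 191 were higher (median 0.55), and before 20 Mb 40 of 79 were lower (median -0.338). The part before 20 Mb is not counted among the stretches. On chromosome 16 a run of 34 neighbouring genes from KNOP1 to HS3ST4 (19701934 to 26137688) was called higher with a median of 1.07; it holds PLK1 and the protein kinase PRKCB, at 151, 157 and 145 against 395 and 358 CPM (1.32). Of the abundant genes with the largest positive differences, MCM3, PHF10 and PRKCB lie in these stretches and ATF4, PLXNB2 and TOP2A do not. The stretches held 850 of the 17887 genes tested (4.75%), 11.99% of those higher at least 2-fold and 7.5% of those lower. Outside them 25.4% of genes were higher and 27.2% lower. Smaller shifted windows elsewhere count as outside. Of 419 windows of 5 Mb with at least 15 genes tested, 32 had a median above 0.3 and 7 below -0.3. Chromosomes 6 and 18 held 22 of the 32. Elsewhere, the median was 0.812 on chromosome 1 from 60 to 65 Mb and -0.804 on chromosome 2 from 125 to 130 Mb. In controls without the control labelled FLT3-ITD replicate 2 these medians were 0.177 and -1.04.

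**Figure D4:**
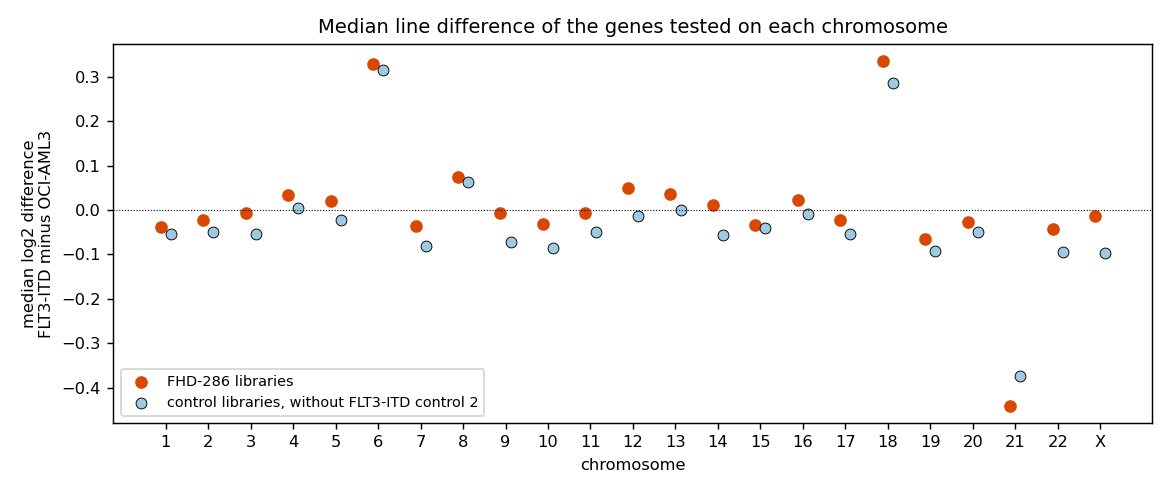
Median log2 line difference (vertical axis) of the genes tested on each chromosome (horizontal axis), in FHD-286 libraries (orange) and in controls without the control labelled FLT3-ITD replicate 2 (blue). Chromosomes 6 and 18 lie above the others (treated medians 0.329 and 0.335) and chromosome 21 below (-0.44) in both conditions; the mitochondrial genome is left out.

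The positional shifts were present without the drug as well. In controls the medians were -0.65 on chromosome 21 from 40 Mb, 0.393 on chromosome 6 from 40 Mb and 0.331 on chromosome 18 from 20 Mb, or -1.41, 0.558 and 0.437 without the control labelled FLT3-ITD replicate 2. That library itself stood at -0.103 relative to the OCI-AML3 controls on chromosome 21 from 40 Mb, against -1.36 and -1.43 in the other FLT3-ITD controls and -1.52 and -1.45 in the treated FLT3-ITD libraries (median over 47 genes of at least 5 CPM). Whether gene copy number differs between the lines was not tested.

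Much of the treated line difference was already there in controls. Across 16726 genes tested in both, which are not independent replicates, the treated and untreated line differences, which share no library, correlated at 0.865 (Pearson, a description) without the control labelled FLT3-ITD replicate 2 and at 0.657 across 16380 genes with it. Of 2278 genes that differed at least 2-fold in the treated lines, 1507 did so with the same sign in controls (66.2% of these and 64.1% of the 2352 in controls), and 9 with the opposite sign. With that library 339 of 2087 did (16.2%, and 56.9% of the 596 in controls). The untreated comparison called 1850 of 16750 genes with it, 966 higher (5.77%) and 884 lower (5.28%), and at least 2-fold 3.27% higher and 0.466% lower. Without it 8293 of 17291 were called (48.0%), 23.5% higher and 24.5% lower, and at least 2-fold 10.1% and 4.89%.

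Genes with the largest difference of line differences, among those also called between the treated lines, went both ways. SHANK1, a scaffold protein, was at 25.5, 25.3 and 24.1 against 43.5 and 51.0 CPM with FHD-286 (0.92) and at 69.1 to 74.4 against 42.0 to 50.2 CPM in controls, so the lines changed order; the difference was 1.58 (SE 0.13, adjusted p = 0.000746), or 1.55 without the control labelled FLT3-ITD replicate 2. RGS16, which shortens G protein signals, was at 17.2, 17.1 and 17.0 against 121 and 109 CPM with FHD-286 (2.75) and at 13.8 to 15.2 against 25.5 to 48.3 CPM in controls. CRISPLD2, a secreted protein, was at 71.8, 78.2 and 71.9 against 3.995 and 3.59 CPM with FHD-286 (-4.29) and at 20.6 to 21.3 against 7.01, 23.3 and 8.59 CPM in controls. HK2, a hexokinase counted among the MYC growth targets, stood at 298, 294 and 295 against 144 and 133 CPM (-1.09), while its list was lower in 12 and higher in 4 of 29.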

How the data were processed

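The analysis started from raw counts per gene that the authors deposited for 5 treated and 6 control bulk RNA sequencing libraries. STAR and hg38 are named in the submitters' processing notes. How genes were counted (program, annotation, strand) is not given in the sources used here. Genes that overlap on opposite strands may therefore share reads. Symbols and coordinates came from GENCODE 29, which held 57388 of the 58037 gene identifiers. Total counts ran from 58397190 to 79172389, and 3 counts correspond to 0.0366 to 0.0548 CPM. Counting intervals and floors cover counting error only.

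CPM used TMM factors over all 11 libraries. Genes passed edgeR's filter (minimum count 10, minimum total 15) and were tested with the quasi-likelihood test of edgeR 4.0.16 in R 4.3.3, with Benjamini-Hochberg adjustment over all genes tested. All adjusted p-values come from it, and each SE is the size of the difference divided by the square root of F. The treated comparison was fitted on its 5 libraries, the untreated one on 6, and the difference of line differences on all 11. Tested on simulated counts of the treated comparison (17480 genes), it recovered 98% of 100 genes shifted 2-fold and 100% of 100 shifted 4-fold, and called 37 of 17280 others. The 200 shifted genes had at least 1 CPM and went up and down equally, and the simulated spread depended on level alone. Recovery of genes below 1 CPM, of genes with more spread, or where many more genes differ was not tested. Gene lists are described by counts and medians, with no set test. The comparison, the gene lists and the rule for names were chosen with earlier results of these data known. Named were FLT3, SMARCA4, SMARCA2, MYC and SPI1, the 12 largest called differences in each direction (average log2 CPM of at least 2, lines not overlapping), the 6 largest with a mean of at least 200 CPM, 4 members of each list with the smallest p and up to 2 of its minority direction, called neighbours in a run, and 5 genes in each direction with the largest difference of line differences. List members named beyond this, the motifs other than STAT, the ZNF genes as a set, the chromosome stretches and the counts outside them were chosen after the values were seen. A few genes that the rule names are not reported here. DESeq2 1.42.0 was an alternative.

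Correlations of same-numbered treated libraries' deviations were -0.112 and -0.115. With 2 FLT3-ITD libraries the deviations mirror each other, so these values are not separate checks and cannot exclude pairing. Replicate numbers were not taken as pairs because the labels do not say what a number marks.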

Additional observations from a re-analysis of the deposited data

Results flagged for a closer look

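The line difference with FHD-286 was tested against that in controls, in the fit of all 11 libraries (edgeR, Benjamini-Hochberg), because the same contrast was measured in both conditions. As a signed value it was higher for 375 genes and lower for 260. A lower value is a wider gap where the FLT3-ITD line was already the lower one. Among S phase genes 18 had a higher line difference under treatment, and among G2 and M phase genes 13 did. A lower one was called for 6 monocyte and macrophage markers (ITGAM, KLF4, CEBPB, MNDA, MS4A7 and TLR4), 5 haematopoietic transcription factors (SPI1, CEBPA, LMO2, FLI1 and GFI1) and 5 of the 10 markers of a myeloid leukaemia line (SPI1, CEBPA, MPO, ITGAM and CSF3R), so SPI1, CEBPA and ITGAM are counted in more than 1 list. Without the control labelled FLT3-ITD replicate 2 these counts, in the same order, were 24, 25, 12, 8 and 6.

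Of single genes, SHANK1 differed between conditions by 1.58 on the log2 scale, BIN1 by 1.43, F2RL3 by 1.40, TDRD7 by 1.38 and RGS16 by 1.35. The tubulating protein BIN1 stood with FHD-286 at 5.19, 5.21 and 5.05 CPM in OCI-AML3 against 8.36 and 8.81 CPM, and at 3.31 to 3.64 against 1.76 to 2.65 CPM in controls, so the order of the lines turned. In the other direction the values were -3.85 for IFIT2, -3.59 for CRISPLD2, -2.51 for ART3, -2.46 for CEBPB and -2.31 for DDIT4. The size of the IFIT2 value is uncertain, because its OCI-AML3 controls lie around the level of 3 counts. ART3 was at 14.2, 15.1 and 13.8 against 1.98 and 1.68 CPM with FHD-286 and at 28.7 to 29.4 against 17.4, 30.7 and 15.4 CPM in controls, the control labelled FLT3-ITD replicate 2 being the one level with OCI-AML3. All 10 genes were also called, with the same sign, without that library.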

How the results depend on the processing

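The treated comparison gave 4827 genes higher and 4754 lower. Normalisation, low-count filters and DESeq2 left both counts within 1.5 times, and no gene called at least 2-fold was called with the opposite sign under any alternative run. Library totals called 5403 higher and 4088 lower, which moved the share higher among called genes from about even to 56.9%. A minimum change of 2-fold called 853 and 590, and all 11 libraries with 1 shared spread 2703 and 2213. Leaving out 1 treated library gave 4208 to 4941 higher and 4008 to 4925 lower. With 1 FLT3-ITD library left, that library is assumed to vary like the others. Of 3190 recomputed values of 200 named genes, 3055 kept their call status, 131 (91 genes) lost the call and 4 (1 gene) gained it. No value called in either fit changed sign. Signs of values called in neither fit were not compared. List medians near 0 turned sign: that of the haematopoietic factors with library totals (0.0124), that of the cholesterol list with upper-quartile factors (-0.00726) and without treated FLT3-ITD replicate 1 (-0.061), that of the monocyte markers with either other low-count filter (0.103) and without treated FLT3-ITD replicate 2 (0.0371), and that of the BCL2 family with no filter (-0.0956) and without that library (-0.215). The STAT5 and Wnt medians, not given above, also turned, the former without treated FLT3-ITD replicate 1 (0.0228) and the latter in several alternatives (up to 0.0518).

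The untreated counts (966 higher, 884 lower) became 2077 and 1467 with DESeq2, 2738 and 2551 with all 11 libraries, and 561 lower with library totals. A minimum change of 2-fold called 0 and 0 in edgeR (658 genes at an unadjusted p under 0.05). Leaving out 1 control gave 0 to 4058 higher and 0 to 4235 lower, with 0 in each direction without any of the OCI-AML3 controls or the third FLT3-ITD control (3510 to 4095 genes at an unadjusted p under 0.05). For the difference of line differences, DESeq2 called 788 higher and 653 lower, a minimum of 2-fold 0 and 3 (440 at an unadjusted p under 0.05), and leaving out 1 library 46 to 1792 and 59 to 1374; the lowest counts came without treated FLT3-ITD replicate 1.

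With the replicate number as a block the treated comparison called 4233 higher and 3985 lower, the untreated one 25 and 9, and the difference of line differences 203 and 146. The labels do not say what a number marks, and the deviations of same-numbered treated libraries cannot settle it.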
